A study of Drosophila melanogaster with 46 samples.

Results

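The 9 genes described here encode enzymes and regulators of fatty acid and lipid synthesis in Drosophila melanogaster: SREBP, SCAP, ATPCL, ACC, FASN1, FASN2, Desat1, Lpin and mdy. They were chosen by symbol, with their fold changes and binding in these data already known. All 9 had a row in both gene expression tables, which hold 12785 genes for the Pc mutant and 11771 genes for ph RNA interference (RNAi), and all 9 were located in the Release 6 annotation, the dm6 build of the files. Because the values below took part in choosing the genes, they are given as a description, with no test of the group.

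All samples used were eye discs of L3 wandering larvae, from which the eye and antenna of the adult develop. RNA-seq came from the group labelled Mutant_PcXT109_FRT2A, a PCxt109 mutant with 2 replicates, from ph_RNAi (BL 64095 crossed to VDRC 50028, 4 replicates) and from w_RNAi, the white control (BL 64095 crossed to BL 33623, 4 replicates), with about 150 discs per replicate. ChIP-seq of PSC and SU(Z)12 used W1118 Oregon-R larvae, with 2 replicates per protein and about 500 discs each. The products of Pc, ph and Psc are subunits of Polycomb repressive complex 1 and SU(Z)12 belongs to complex 2, and both complexes keep developmental genes silent. FRT2A is a recombination site, and whether every cell of the Pc mutant discs was mutant was not tested. No label names the control used for the Pc mutant or the driver carried by stock BL 64095, and the ph table does not name its control, taken here to be the w_RNAi group. Nothing in the labels says whether the replicates are separate cultures or animals, and the spread behind the p-values may then be technical.

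Fatty acids are built in the cytoplasm from acetyl-CoA, which is carboxylated to malonyl-CoA and condensed by a fatty acid synthase, and the products are desaturated and joined to glycerol to make membrane lipids and stored triglyceride. In flies, as in mammals, SREBP is a membrane-bound transcription factor that is carried to the Golgi by SCAP, released there by proteolysis, and activates genes of fatty acid synthesis. In flies this release is restrained by phosphatidylethanolamine, and the larval organs best known for lipid synthesis are the fat body and the oenocytes.

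The genes lie at 8 places on 4 chromosome arms. FASN2 (2L, 3043947 to 3056143) and FASN1 (2L, 3056598 to 3068177) are neighbours, with 454 bp between them, and mdy lies elsewhere on the same arm (16816660 to 16826964). Arm 2R holds 4 of them, SCAP (6026273 to 6036388), ACC (7974115 to 7991862), Lpin (8136986 to 8156654) and ATPCL (15993531 to 16001290). SREBP lies on 3L (19793935 to 19798979) and Desat1 on 3R (12439600 to 12447616). These spans are whole gene bodies, and strand and exons were not used here.

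In ph RNAi discs, 8 of the 9 genes rose and ATPCL fell, while in Pc mutant discs none passed the test as higher and 3 fell (ATPCL, SREBP and Lpin). A gene is called changed where the adjusted p of the authors' DESeq2 Wald test was under 0.05. In the authors' deposited table for ph, the median log2 fold change of the 9 genes was 0.95, against -0.06 over all 11009 genes tested. In the authors' deposited table for Pc, it was -0.20, against 0.02 over all 11297 genes tested. For ph, 66.0% of all genes tested were called in the authors' deposited table, 31.1% as higher and 34.9% as lower. For Pc, 9.88% were called in the authors' deposited table, 3.64% as higher and 6.24% as lower. Among genes with a mean normalized count of at least 1000, which is the range of all members but FASN2, the shares in the authors' deposited table for ph were 47.4% higher and 36.1% lower, and in that for Pc 4.30% higher and 7.31% lower. Of those genes, 83.4% were called in either direction in the authors' deposited table for ph. Since these values chose the genes, nothing is read from the counts. In bulk RNA, fewer cells of a type and less RNA per cell cannot be told apart. By unadjusted p under 0.05, the authors' deposited table for Pc had 1 member higher and 4 lower. No other tool was run, since the tables hold no value per library. For the same reason no value per sample can be shown, and each error below is the authors' standard error (SE).

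**Figure D1:**
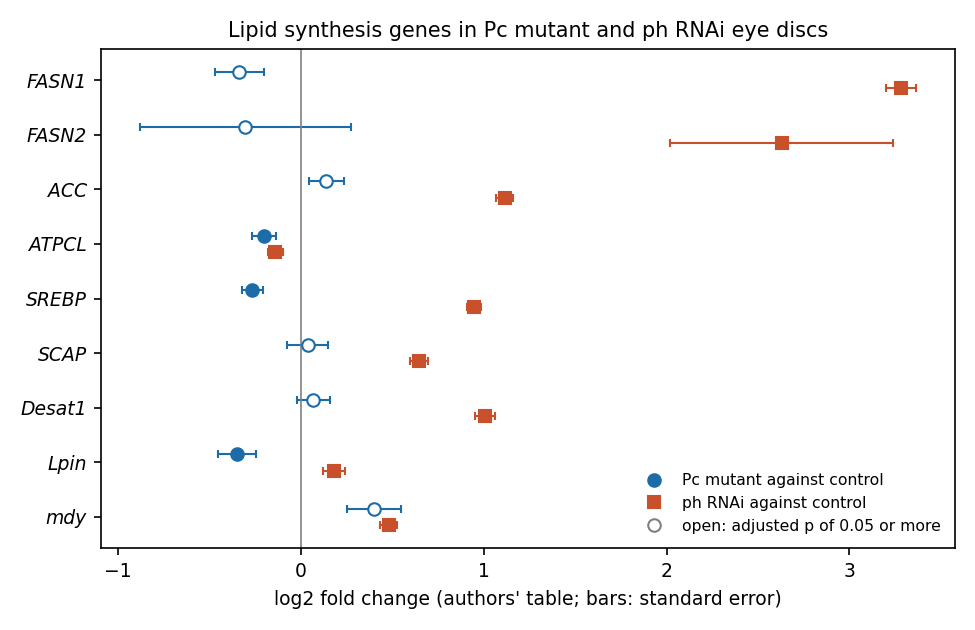
Log2 fold changes of the 9 genes in the authors' deposited tables for Pc mutant and ph RNAi discs, with bars of 1 standard error. In ph RNAi FASN1 stands at 3.28 and FASN2 at 2.63, the other 7 lie between -0.14 and 1.11, and in the Pc mutant all 9 lie between -0.35 and 0.40.

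SREBP, the transcription factor of the pathway, moved in opposite directions in the 2 comparisons. The authors' deposited table for ph lists it at a mean normalized count of 8944 and a log2 fold change of 0.95 ± 0.04 (SE), which is 1.93-fold higher with a 95% interval of 1.83 to 2.03. If the 4 libraries of each group weigh equally, these values of the authors' deposited table correspond to means of 6114 in white RNAi and 11775 in ph RNAi. The authors' deposited table for Pc gives -0.27 ± 0.06 for SREBP (adjusted p = 6.41e-05). SCAP, the escort that carries SREBP, rose in ph RNAi by 0.65 ± 0.05 on the log2 scale in the authors' deposited table, from an implied mean of 3409 to 5334. Its value in the authors' deposited table for Pc was 0.04 ± 0.11, with an adjusted p of 0.94. Both regulators were thus higher in ph RNAi, and SREBP alone of the pair was called in the Pc mutant. Whether the 2 comparisons differ for SCAP was not tested.

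ATPCL and ACC supply the building blocks of fatty acids. ATPCL, ATP citrate lyase, makes cytoplasmic acetyl-CoA from citrate, and was the one member that fell in both comparisons. Its log2 fold change was -0.14 ± 0.04 in the authors' deposited table for ph (adjusted p = 0.000849) and -0.20 ± 0.06 in the authors' deposited table for Pc (adjusted p = 0.0197). These are falls of 1.10-fold and 1.15-fold in the authors' deposited tables. With the log2 fold changes of the authors' deposited table for ph centred on the median of all genes, ATPCL was at -0.08 and no longer called. ACC, acetyl-CoA carboxylase, makes malonyl-CoA in the step that commits acetyl-CoA to fatty acids. It rose in ph RNAi by 1.11 ± 0.05 on the log2 scale in the authors' deposited table, 2.16-fold (95% interval 2.03 to 2.30), from an implied mean of 3456 to 7475. ACC in the authors' deposited table for Pc was at 0.14 ± 0.10 with an adjusted p of 0.51. The 2 supply enzymes therefore did not move together in ph RNAi.

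FASN1 and FASN2 encode fatty acid synthases, and had the highest fold changes of the 9 genes in ph RNAi. FASN1 rose 9.73-fold in the authors' deposited table for ph, with a 95% interval of 8.71 to 10.9 and an adjusted p listed as 0. On the log2 scale this is 3.28 ± 0.08 in the authors' deposited table, with a mean normalized count of 25576.5 and implied means of 4768 in white RNAi and 46385.5 in ph RNAi. Among the 7741 genes with a mean normalized count of at least 50 in the authors' deposited table for ph, FASN1 ranked 49 by fold change. In the Pc mutant the value of FASN1 in the authors' deposited table was -0.34 ± 0.13, with an adjusted p of 0.0938. With that table centred on the ribosomal protein genes it was called lower, at -0.41 from the authors' deposited table.

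FASN2, known for its role in oenocytes, rests on few reads in both tables. The authors' deposited table for ph gives FASN2 a mean of 16.5 and a log2 fold change of 2.63 ± 0.61 (adjusted p = 3.74e-05), which is 6.18-fold with a wide 95% interval of 2.69 to 14.2. Its implied means from the authors' deposited table were 4.59 in white RNAi and 28.4 in ph RNAi. For Pc, the authors' deposited table gives FASN2 a mean of 66.0 and a value of -0.30 ± 0.58. The synthases are paralogs that lie side by side, the sources used here do not say how reads shared by paralogs were counted, and reads of FASN1 counted for FASN2 were not tested.

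Desat1, the acyl-CoA desaturase that introduces the double bond of monounsaturated fatty acids, rose in ph RNAi. Its log2 fold change in the authors' deposited table for ph was 1.01 ± 0.06, 2.01-fold (95% interval 1.86 to 2.17), with implied means of 10944 in white RNAi and 21971 in ph RNAi. Its value in the authors' deposited table for Pc was 0.07 ± 0.09, with an adjusted p of 0.82. FASN1, FASN2, ACC and Desat1 were the 4 members with a log2 fold change of at least 1 in the authors' deposited table for ph. Of all genes tested there, 5.05% were called higher and 19.4% called lower with an absolute log2 fold change of at least 1. No member reached that size in the authors' deposited table for Pc. There 1.50% of all genes tested were called higher and 2.43% called lower at that size.

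Lpin and mdy act where fatty acids are joined to glycerol. Lpin, the phosphatidate phosphatase that makes diacylglycerol, rose in ph RNAi by 0.18 ± 0.06 in the authors' deposited table (adjusted p = 0.00465) and fell in the Pc mutant by 0.35 on the log2 scale, with an SE of 0.10 and an adjusted p of 0.00966. Its rise depended on the scaling, since with the authors' deposited table for ph centred on ribosomal protein genes Lpin was called lower, at -0.21. mdy, the diacylglycerol acyltransferase that completes triglyceride, rose in ph RNAi by 0.48 ± 0.05 in the authors' deposited table, 1.39-fold (95% interval 1.30 to 1.49). That rise too was lost in the authors' deposited table when centred on ribosomal protein genes, where mdy was at 0.09. For Pc, mdy had the highest log2 fold change of the 9 genes in the authors' deposited table, 0.40 ± 0.15, with an adjusted p of 0.0666.

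**Figure D2:**
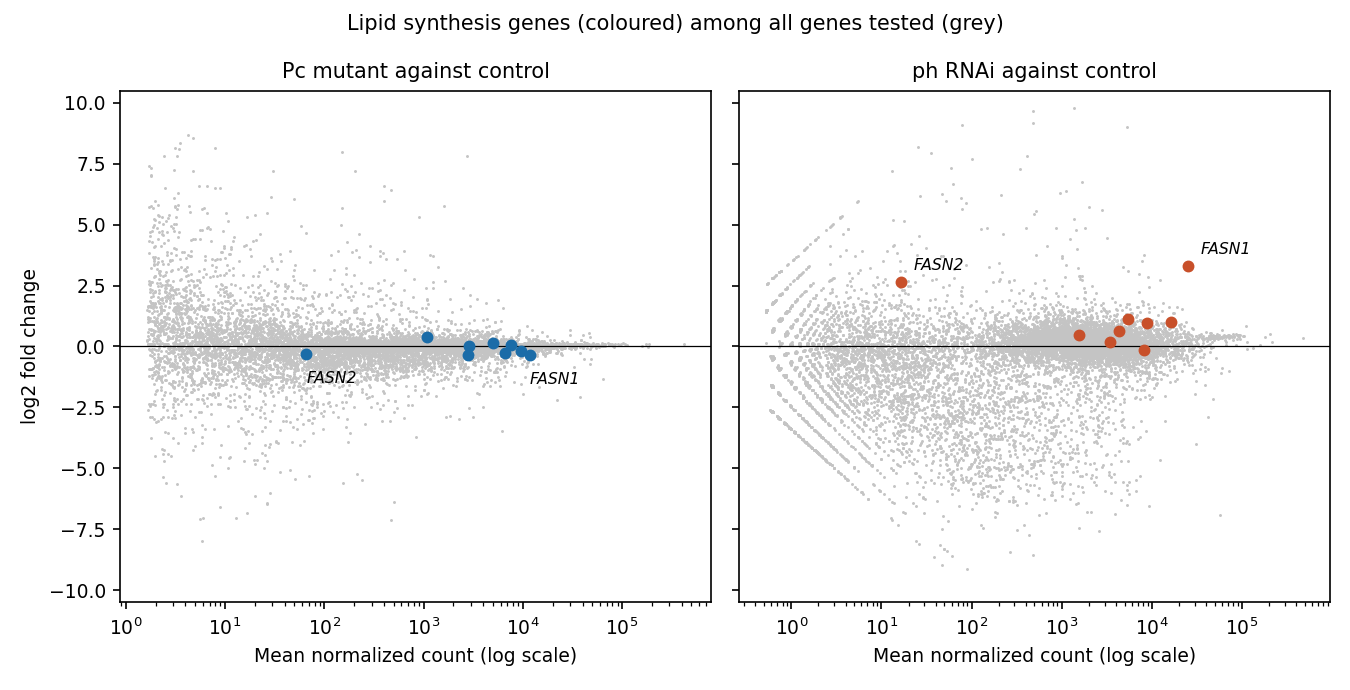
Log2 fold change against mean normalized count (log scale) in the authors' deposited tables, with every gene tested in grey and the 9 genes coloured. In ph RNAi FASN1 lies at a mean of 25576.5 and a log2 fold change of 3.28, above most genes of similar count, and FASN2 lies at a low mean of 16.5.

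Set side by side, 6 genes were higher in ph RNAi and not called in the Pc mutant (FASN1, FASN2, ACC, SCAP, Desat1 and mdy), 2 were called in opposite directions (SREBP and Lpin) and 1 was lower in both (ATPCL). The difference between the comparisons was not tested, and they rest on different replicate numbers. The targeted genes were first checked against the labels. Pc was at -1.64 ± 0.41 in the authors' deposited table for Pc (adjusted p = 0.00134). For ph, the 2 copies ph-p and ph-d were at -0.80 ± 0.04 and -0.66 ± 0.05 in the authors' deposited table. The gene w, which the control RNAi targets, was at 0.79 ± 0.12 in the authors' deposited table for ph, so it was lower in the control. The ph and white crosses used different RNAi stocks, and the part of the stocks in this difference was not tested. The scaling of the authors' deposited table for ph sets cytoplasmic ribosomal protein genes (88 genes) at a median of 0.39, against 0.08 in the authors' deposited table for Pc. Relative to them, 6 of the 9 genes were higher and 2 lower in the authors' deposited table for ph, and relative to the median of all genes 8 were higher and none was lower, by the same Wald test. The shares of all genes called after such a shift were not counted. The order of the members by fold change is not affected by it.

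The other genes of lipid metabolism were called in both directions, and their median in ph RNAi was below 0. The 10 lists hold 126 genes and leave the members out. In ph RNAi, 33 of the 115 genes tested rose and 56 fell in the authors' deposited table, with a median log2 fold change of -0.33, beside 31.1% and 34.9% of all genes. In the Pc mutant, 6 of 122 rose and 9 fell in the authors' deposited table, with a median of -0.05, beside 3.64% and 6.24% of all genes. Centred on ribosomal protein genes, the counts were 14 higher and 81 lower from the authors' deposited table for ph, and 3 higher and 14 lower from that for Pc. Centring shifts every gene alike, and the share of all genes called after it was not counted. The shares of all genes given here are uncentred, so the centred counts cannot be set beside them.

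For genes next to fatty acid synthesis, the shares to set beside the counts in ph RNAi are 31.1% higher over all genes and 47.4% higher among genes with a mean normalized count of at least 1000. Of 6 genes that supply acetyl-CoA and NADPH, 4 rose and 1 fell in the authors' deposited table for ph. Among them AcCoAS, which makes acetyl-CoA from acetate, rose by 2.79 ± 0.09 in the authors' deposited table (adjusted p = 3.09e-229). Men, the malic enzyme that makes NADPH, rose by 1.17 ± 0.07 in the authors' deposited table. Idh, isocitrate dehydrogenase, was lower at -0.40 ± 0.04 in the authors' deposited table. AcCoAS and ATPCL, which both make acetyl-CoA, thus moved in opposite directions in ph RNAi. The fall of ATPCL was small, at -0.14 ± 0.04 in the authors' deposited table, and was not called when centred on all genes. Of 9 genes for the SREBP proteases and for phosphatidylethanolamine and phosphatidylcholine synthesis, 6 rose and 2 fell in the authors' deposited table for ph. Pect and Pcyt1, which activate phosphoethanolamine and phosphocholine, rose by 0.85 ± 0.05 and 0.59 ± 0.04 in the authors' deposited table. The kinase gene eas fell by 0.41 (SE 0.10) and CG2201 fell by 2.02 (SE 0.11) on the log2 scale in the authors' deposited table. S1P, the site-1 protease that cuts SREBP in mammals, rose by 0.44 ± 0.06 in the authors' deposited table, and S2P was at 0.12 ± 0.05 with an adjusted p of 0.0512. For Pc, no gene of these 2 lists was called by the DESeq2 test of the authors' deposited table, and 1 was higher and 4 were lower at an unadjusted p under 0.05.

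Genes for activating and burning fatty acids were called lower more often than higher in ph RNAi, and those for modifying them were called in both directions, beside 34.9% of all genes called lower and 31.1% called higher. Of 22 elongation and desaturase genes tested, 5 rose and 10 fell in the authors' deposited table for ph. The desaturase-like gene CG9747 was higher in both comparisons, by 0.87 ± 0.14 in the authors' deposited table for ph and by 1.14 ± 0.15 in that for Pc (adjusted p = 1.55e-12). The elongase-like gene CG5326 was lower in ph RNAi at -3.28 ± 0.22 and higher in the Pc mutant at 0.48 ± 0.16 in the authors' deposited tables. CG31523 rose by 0.47 ± 0.05 and spidey was at -2.65 ± 0.20 in the authors' deposited table for ph, and Cyt-b5 was called lower at -0.45 ± 0.11 in that for Pc. CG9747 thus moved the same way in both comparisons, and CG5326 in opposite ways. Acyl-CoA synthetases and acyl-CoA binding proteins fell in 9 of 11 cases in the authors' deposited table for ph, with a median of -1.39. The 13 genes of that list in the authors' deposited table for ph had a median mean normalized count of 55.7, so part of the list rests on few reads. Within that list pdgy was at -1.39 ± 0.06 and CG3961 at -2.33 ± 0.12, while Acsl rose by 0.32 ± 0.05 in the authors' deposited table for ph. CG3961 in the authors' deposited table for Pc was also lower (-0.84 ± 0.24), and Fatp2 was higher (0.87 ± 0.18). Fatp2 was lower in the authors' deposited table for ph, at -0.81 ± 0.11. Acsl was the single gene of this list called higher in ph RNAi. Of 13 genes of beta-oxidation, the breakdown of fatty acids, 9 fell and 2 rose in the authors' deposited table for ph. The carnitine palmitoyltransferase gene whd was at -1.72 ± 0.07 and the dehydrogenase gene CG3902 at -2.31 ± 0.07 in the authors' deposited table for ph. Echs1 and CPT2 rose by 0.18 ± 0.03 and 0.14 ± 0.05 in the authors' deposited table for ph, and CPT2 rose by 0.19 ± 0.06 in that for Pc.

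**Figure D3:**
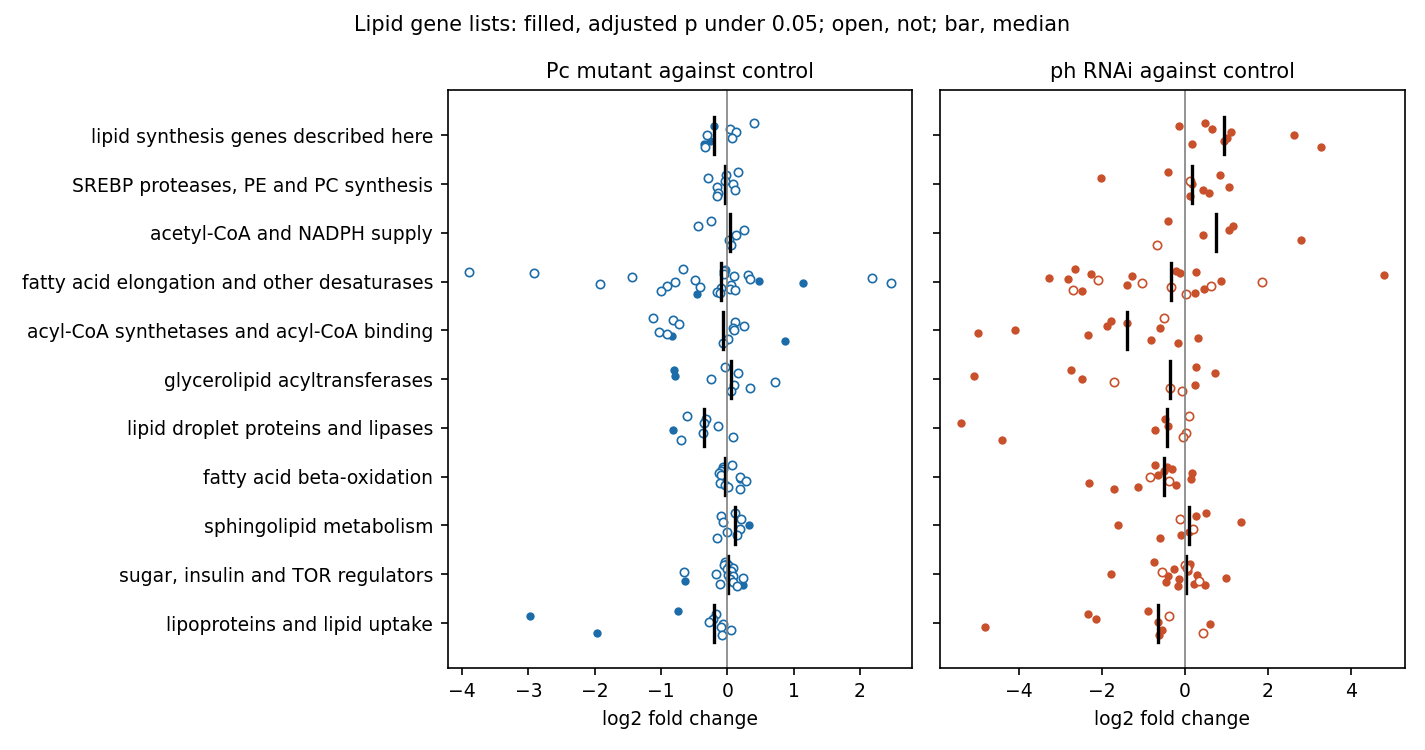
Log2 fold changes of the members and of the 10 other lipid gene lists in the authors' deposited tables for Pc mutant and ph RNAi, 1 point per gene (filled where the adjusted p was under 0.05) with a bar at the median and a separate scale in each panel (PE and PC stand for phosphatidylethanolamine and phosphatidylcholine). In ph RNAi the median of the members is 0.95, that of acetyl-CoA and NADPH supply 0.75, and that of acyl-CoA synthetases -1.39.

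Lists for storage and transport had both directions or mostly fell in ph RNAi, beside 31.1% of all genes called higher and 34.9% called lower. Among genes with a mean normalized count of at least 1000, these shares were 47.4% and 36.1%. Of 9 glycerolipid acyltransferase genes, 3 rose and 3 fell in the authors' deposited table for ph. mino and Gpat4, which add the fatty acid to glycerol phosphate, rose by 0.72 ± 0.05 and 0.25 ± 0.04 in the authors' deposited table for ph. Agpat1 and Agpat2, which act one step later, were lower in both comparisons, at -5.07 ± 0.23 and -2.73 ± 0.33 in the authors' deposited table for ph and at -0.78 ± 0.22 and -0.80 ± 0.25 in that for Pc. Agpat3 and Agpat4, of the same step, were not called in the authors' deposited table for ph, at -0.08 ± 0.04 and -0.37 ± 0.96. Agpat4 had a mean normalized count of 3.57 in the authors' deposited table for ph, so its value rests on few reads. Of 8 genes for lipid droplet proteins and lipases, 5 were lower in the authors' deposited table for ph, among them Lip4 at -5.39 ± 0.29 and Hsl at -0.40 ± 0.04. bmm, the main triglyceride lipase of flies, was lower at -0.82 ± 0.29 in the authors' deposited table for Pc and at -0.72 ± 0.21 in that for ph. Of 10 lipoprotein and lipid uptake genes, 7 fell and 1, LpR2, rose by 0.60 ± 0.03 in the authors' deposited table for ph. NLaz was at -4.82 ± 0.35 and Mtp at -0.63 ± 0.05 in the authors' deposited table for ph. Npc1a was lower in both comparisons, at -0.89 ± 0.17 in the authors' deposited table for ph and -0.74 ± 0.18 in that for Pc. LpR2 was thus the single lipoprotein and uptake gene called higher in ph RNAi. Sphingolipid genes were split, with 4 of 9 higher and 3 lower in the authors' deposited table for ph. The desaturase ifc rose by 0.52 ± 0.05 and the kinase Sk1 by 1.36 ± 0.19, while GlcT was at -0.59 ± 0.06 and CDase at -1.62 ± 0.16 in the authors' deposited table for ph. CDase, a ceramidase, rose by 0.33 ± 0.09 in the authors' deposited table for Pc.

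Of 18 genes for sugar, insulin and TOR regulation of lipid synthesis, 7 rose and 7 fell in the authors' deposited table for ph. Of all genes tested for ph, 31.1% were called higher and 34.9% lower. The sugar-responsive factor cbt rose by 0.98 ± 0.15 and the kinase S6k by 0.50 ± 0.04 in the authors' deposited table for ph. foxo, the factor restrained by insulin signalling, was lower at -1.77 ± 0.07 and the nuclear receptor Hnf4 at -0.74 ± 0.04 in the authors' deposited table for ph. For Pc, in the authors' deposited table, S6k rose by 0.23 ± 0.08 and the translation inhibitor Thor was lower at -0.64 ± 0.20. S6k and Thor were the 1 gene called higher and the 1 called lower for Pc, beside 3.64% and 6.24% of all genes. Calls in the list went both ways in both comparisons, and nothing is read from the counts.

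Markers of organs that may come with a dissected disc were read from the same tables. To set beside the counts, 31.1% of all genes were called higher and 34.9% lower for ph. For Pc these shares were 3.64% and 6.24%. Of 14 fat body markers, none rose and 2 fell in the authors' deposited table for ph, also at an unadjusted p under 0.05. Their mean normalized counts in the authors' deposited table for ph summed to 1447, and 2 were under 1. Lsp1beta and Lsp1gamma, larval serum proteins, were at 2.16 ± 1.23 and 1.13 ± 0.80 in the authors' deposited table for ph without passing the test, and Yp2 was lower at -1.63 ± 0.45. The median of the list was 0.62 in the authors' deposited table for ph. No fat body marker was thus called higher in ph RNAi. In the Pc mutant 6 of 13 fat body markers tested fell in the authors' deposited table, with a median of -1.39, and their mean counts summed to 22141. The lipoprotein gene apolpp was at -1.96 ± 0.51 and Lsp1beta at -2.51 ± 0.76 in the authors' deposited table for Pc. The part of fat body RNA in the falls of SREBP, ATPCL and Lpin in the Pc mutant was not tested.

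Of 7 oenocyte markers tested in the authors' deposited table for ph, FASN2 itself was the 1 that rose and 4 fell, and 2 further markers had mean counts under 1. Cyp4g1, the defining oenocyte enzyme, had a mean count of 6.74 and a value of 0.54 ± 1.04 in the authors' deposited table for ph. For Pc it was lower in the authors' deposited table at -2.70 ± 0.61, with none of the 9 markers higher by the adjusted or the unadjusted p. All 8 haemocyte markers fell in the authors' deposited table for ph, with a median of -2.72, and none was called in that for Pc, also by unadjusted p. Haemocyte markers were thus lower in ph RNAi and uncalled in the Pc mutant. Of 8 muscle markers, 6 fell in the authors' deposited table for ph and 8 in that for Pc, where the median was -1.49. Over all genes, 34.9% were called lower and 31.1% higher for ph, and 6.24% lower and 3.64% higher for Pc. Glial markers were called higher in 2 and lower in 4 of 6 cases, and tracheal markers higher in 1 and lower in 4 of 5, in the authors' deposited table for ph. For Pc, 2 glial markers fell, and 1 tracheal marker rose and 1 fell, in the authors' deposited table. The 10 eye disc markers all fell in both comparisons, with a median of -3.66 in the authors' deposited table for ph and -0.90 in that for Pc. They were detected in both, with mean counts that summed to 45689 in the authors' deposited table for ph and to 35546 in that for Pc. The part of these changes in the rise of the lipid synthesis genes was not tested.

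PSC peaks lay at 4 of the 9 genes (SREBP, ATPCL, Lpin and mdy) and a Su(z)12 peak at 1 (mdy, the member with both). A gene was counted where a peak of the merged list, which holds both replicates, shared at least 1 bp with the gene or the 1000 bp on either side. Of all 13922 protein-coding genes, 30.3% had such a PSC peak, 10.4% a Su(z)12 peak and 9.65% both. Among the 2469 protein-coding genes of 5000 to 20000 bp, the range in which all 9 members fall, the shares were 50.7% and 17.4%. The binding was part of the rule, so nothing is read from these counts. FASN1, FASN2, ACC, SCAP and Desat1 had no merged peak of either protein in this window. Peak folds and -log10 q values are the authors', and are used to describe peaks within their list.

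At SREBP the PSC peak was the widest, 1040 bp on 3L (19793442 to 19794481). Its summit lay 350 bp below the lower end of the gene, and it had a fold of 2.19 and a -log10 q of 29.7, rank 1369 of 5999. It overlapped a peak in both replicates and also the ends of CG42637 and Gyc76C, so it cannot be assigned to SREBP alone. At ATPCL a pair of PSC peaks lay at the upper end of the gene, 204 bp and 230 bp wide, with folds of 1.86 and 2.39. The first was in neither replicate list and the other in that of replicate 2, and both overlapped Tmem131, a gene that shares 110 bp with ATPCL. The median fold of the merged PSC list was 1.97, between those of the ATPCL peaks and below that of the SREBP peak.

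Lpin had a 678 bp PSC peak inside the gene (2R, 8145778 to 8146455) with a fold of 1.84, found in both replicates, and a 208 bp peak at its upper end with a fold of 1.87, found in neither. At mdy a 245 bp PSC peak lay below the lower end of the gene (2L, 16816022 to 16816266), with its summit 490 bp from the gene and a fold of 2.03, and was found in replicate 1. The Su(z)12 peak at mdy overlapped it, with its summit 516 bp from the gene, a fold of 2.00, rank 1241 of 2205 and no counterpart in either replicate list. The pair also overlapped CG13280 and CG13272. Thus SREBP and Lpin were the members with a merged PSC peak found in both replicates, and mdy was the single member with peaks of both proteins.

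Just outside the window, Desat1 had a PSC peak 1471 bp beyond its upper end with a fold of 1.84, and SREBP a second one 2750 bp away with a fold of 1.86. ACC and SCAP had no merged or replicate peak within 5000 bp. The list of replicate 1 held weak PSC peaks that the merged list did not. A peak of 288 bp there had its summit 25 bp inside FASN1, with a fold of 1.64, a -log10 q of 6.06 and rank 4926 of 5471, and the same peak falls in the window of FASN2. Desat1 had such a peak inside the gene with a fold of 1.54.

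**Figure D4:**
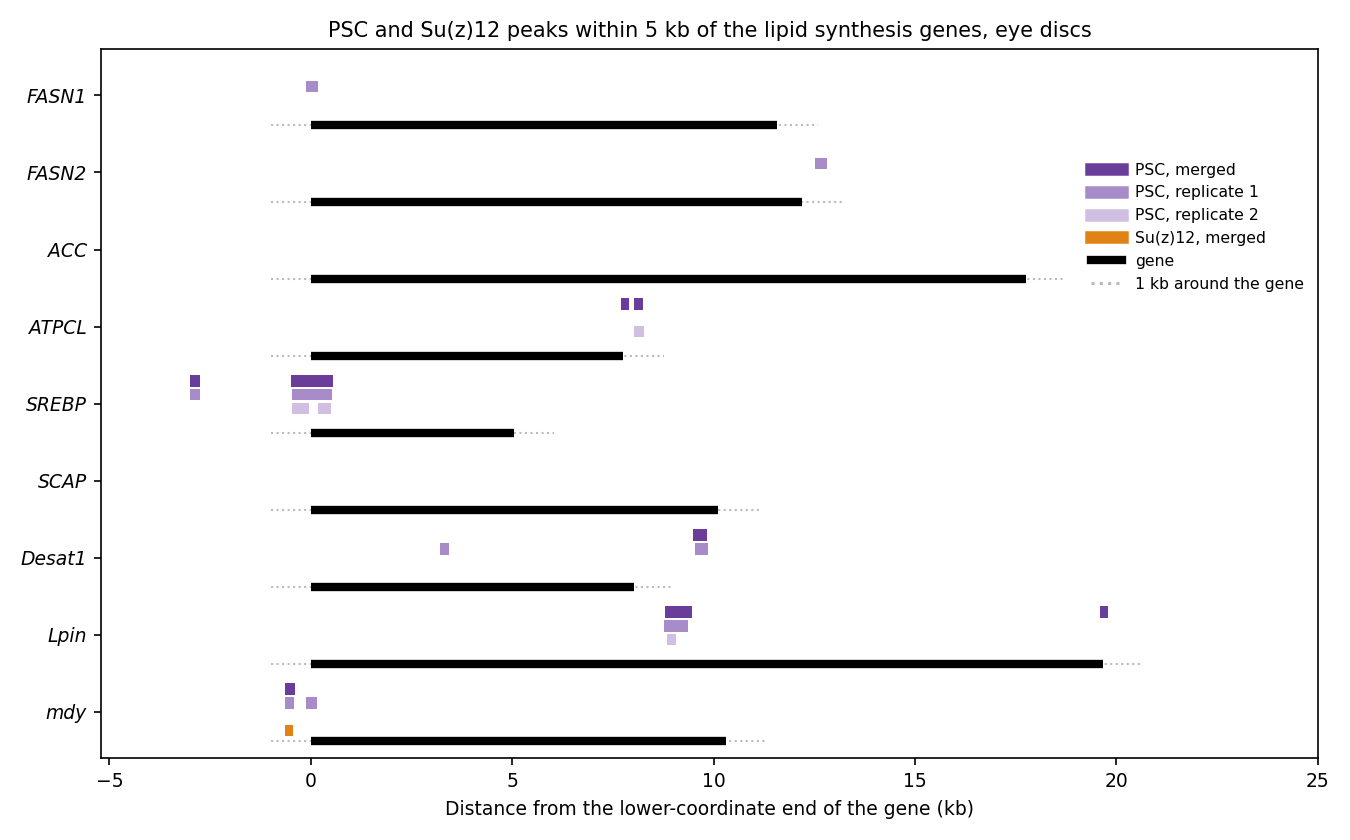
PSC and Su(z)12 peaks within 5 kb of each of the 9 genes, as distance in kb from the lower-coordinate end of the gene, with each gene drawn as a bar. SREBP and Lpin have merged PSC peaks found in both replicates, mdy has the single Su(z)12 peak, and ACC and SCAP have none.

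Several members share their place with other genes, and the kit was a stranded one, but the sources used here do not say whether strand was used in counting. Nup44A lies inside ACC over 2822 bp and rose by 0.53 in the authors' deposited table for ph, against 1.11 for ACC. Cse1 lies inside mdy over 4052 bp and rose by 0.52 in the authors' deposited table for ph, and CG13280 overlaps mdy by 4434 bp. The values for Cse1 and mdy in ph RNAi are close, and reads of one counted for the other were not tested. kermit overlaps Lpin over 9737 bp and was lower at -0.64 in the authors' deposited table for ph, against 0.18 for Lpin. SREBP holds mir-33 in its body and overlaps CG14102 by 5 bp. On the far side of FASN1 from FASN2, toc begins 167 bp away and was lower in both comparisons, at -0.92 ± 0.08 in the authors' deposited table for ph and -0.36 ± 0.07 in that for Pc. On the far side of FASN2, CG17261 lies 353 bp away and rose by 1.64 ± 0.54 in the authors' deposited table for ph (adjusted p = 0.00448). FASN1, FASN2 and CG17261 were therefore higher in ph RNAi, and toc was lower. CG17261, with a mean normalized count of 14.0 in the authors' deposited table for ph, rests on few reads, as does FASN2. CG14591, 168 bp from SCAP, was at -3.18 ± 0.38 in the authors' deposited table for ph, opposite in sign to SCAP.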

How the data were processed

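RNA-seq and ChIP-seq of eye discs were used, and the Hi-C, histone mark, input and embryo samples were not used here. The members and gene lists were chosen with earlier results of these data known. Per the submitters' processing notes, the build was dm6 and the tools included Bowtie2, SAMtools, MACS2 2.1.1.20160309, STAR, HTSeq and, for the authors' tests, DESeq2 1.22.1, with no settings. Per the file headers, the authors' fold change tables are DESeq2 output. The deposited log2 fold changes, standard errors, Wald statistics (unit score), p-values and adjusted p-values are the authors'. The mean normalized count is the authors' mean signal over libraries, so sample depths are unknown and no counting interval was made. The deposited peak lists, for each replicate and merged, hold the authors' score, fold (a ratio over background) and -log10 p and q values of each peak. The sources used here do not say how replicates were merged.

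Genes were located on the 6 chromosome arms of the Release 6 annotation. Intervals of 95% use the authors' standard errors. Group means were derived from the deposited mean and fold change for 4 libraries per group. Centring repeated the Wald test and the Benjamini-Hochberg adjustment over all genes. The 10 other lipid lists and 7 marker lists hold 191 different symbols with the members, and 4 matched no gene. Named are all members, the targeted genes and, by rule, up to 2 called genes per list, direction and comparison with the smallest adjusted p, with the most abundant markers and the strongest called one. S1P, S2P, Agpat3, Agpat4, w, Cyp4g1 and the neighbouring genes fall partly outside this rule and were chosen after their values were seen. Scripts used Python 3.11.15, pandas 2.3.3, numpy 2.4.6, scipy 1.17.1 and matplotlib 3.10.9, and were tested on simulated data.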

Additional observations from a re-analysis of the deposited data

How the results depend on the processing

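No paired analysis was possible because the fold change tables hold no value per sample, and for the same reason no library could be left out of them. With a log2 fold change of at least 1 required, the members called were 0 for Pc by the authors' DESeq2 test, also at an unadjusted p under 0.05 (3 in the report), and 4 for ph (9 in the report), and the other lipid genes called were 3 for Pc and 33 for ph (15 and 89 in the report). At that size, 1 of the 122 other lipid genes tested for Pc was higher and 2 lower, beside 1.50% and 2.43% of all genes. For ph, 6 of 115 were higher and 27 lower, beside 5.05% and 19.4% of all genes. With an adjusted p under 0.01, 9 other lipid genes were called for Pc, 3 higher and 6 lower. The share of all genes called at an adjusted p under 0.01 was not counted. The median of the members for ph, 0.95, was 1.01 centred on all genes, 0.56 centred on ribosomal protein genes, which shifts all log2 fold changes by 0.39, and 0.80 over the 8 members with a mean count of at least 50. Centred on ribosomal protein genes, Lpin reversed in ph RNAi to -0.21, called lower. Members with a PSC peak were 4, against 2 with merged peaks found in both replicates, 0 at a fold of at least 3, and 3 to 6 with 1 replicate left out. Of all protein-coding genes, 30.3% had a PSC peak, against 16.8% with merged peaks found in both replicates and 3.85% at a fold of at least 3. With replicate 1 left out the PSC share of all protein-coding genes was 20.9%, and with replicate 2 left out it was 24.9%. The 1 member with a Su(z)12 peak became 0 with either replicate left out, with peaks found in both replicates, at a fold of at least 3, and with the gene alone as the window. The Su(z)12 share of all protein-coding genes was 6.09% without replicate 1, 6.82% without replicate 2 and 4.7% with peaks found in both. That share was 0.898% at a fold of at least 3 and 6.12% with the gene alone. Apart from the settings' own construction, the cause of the changes in the member counts was not tested. In all, 31 values for the groups of genes were counted as close to those reported, as totals. They include the PSC counts of 3 and 6, and the 2 members called for Pc at an adjusted p under 0.01. With replicate 2 left out, the 6 members were Desat1, FASN1, FASN2, Lpin, SREBP and mdy, without ATPCL. Centring on ribosomal protein genes also moved the split of the other lipid genes. It went from 33 higher and 56 lower to 14 and 81 for ph, and from 6 and 9 to 3 and 14 for Pc. The share of all genes called under this centring was not counted, so nothing is read from the moved split. Depth limits FASN2 most, with a mean count of 16.5 in the ph table.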

Other observations

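PSC peaks were also counted at the other lipid genes, with the same window and merged list. Of 124 located genes, 59 (47.6%) had a PSC peak and 16 a Su(z)12 peak, beside 30.3% and 10.4% of all protein-coding genes. Among the 43 of them that are 5000 to 20000 bp long, 26 had a PSC peak, beside 50.7% of all protein-coding genes of that length. By list, the PSC count ran from 7 of 28 elongation and desaturase genes to 7 of 10 lipoprotein and lipid uptake genes, and 12 of 18 sugar, insulin and TOR regulators had one. Of the 16 genes with a Su(z)12 peak, 6 were elongation and desaturase genes. No test was run on these counts.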
